A study of Homo sapiens with 6 samples.

Results

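Aminoacyl-tRNA synthetases are the enzymes that join each amino acid to its transfer RNA (tRNA). The 36 genes described here are synthetases taken from a fixed list of symbols, in the older form that the count table uses. Of these, 20 act in the cytosol and 16, whose symbols end in 2, act mainly in mitochondria. All 36 had a row among the 17042 genes of the table, and all 36 were among the 13405 genes that passed the filter on low counts and were tested.

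The RNA was bulk, polyadenylated RNA of THP-1 cells, an established line grown from a human monocytic leukaemia. Every library, control or knockdown, had PMA (100 ng/mL, 24 hours), a phorbol ester that turns THP-1 cells into macrophages, followed by the cytokine interleukin-4 (IL-4, 20 ng/mL, 24 hours). In the 3 knockdown libraries the cells had also received small interfering RNA (siRNA) to RP11-184M15.1, a long noncoding RNA, with a lipid reagent and ahead of the IL-4. The 3 control libraries are labelled WT, and the sources used here do not give what those cells received. A single cell line was used and separate cultures are not stated, so the p-values rest on library-to-library spread that may be technical. In bulk RNA, fewer cells of a type and less RNA per cell cannot be told apart.

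Library totals ran from 10450043 to 14181343 counts. RP11-184M15.1 could not be looked up by that name among the rows. AC078850.1, a noncoding transcript with a clone-derived name whose relation to the target is not stated in the files, fell by 84.5% (edgeR quasi-likelihood adjusted p = 2.28e-11). That was the smallest adjusted p of all genes tested, and the naming rule did not cover this gene. Whether its fall reflects loss of the target was not tested. All 12 macrophage markers looked at were tested, of which CD14 and CD163 rose and LYZ fell. In the controls CSF1R was at 1744 counts scaled to library size (CPM) and SPI1 at 620 CPM. MRC1 was low, at 1.76 CPM in controls and 2.43 CPM in knockdown. Summed levels were 10745 to 11363 CPM in controls and 10778 to 11415 CPM in knockdown. The largest parts of the control sum were CTSD (3436 CPM) and CTSB (2917 CPM), so the sum says little about low markers. Among the marker calls, CD14 had a log2 fold change of 0.34, CD163 one of 0.40 and LYZ one of -0.40 (edgeR adjusted p = 0.00300, 0.0127 and 0.000928). Of all genes tested, 1.22% were called higher and 1.61% lower. For CD163 the adjusted p was 0.0535 to 0.119 on leaving out control replicate 2, knockdown replicate 1 or knockdown replicate 2. Of 11 markers of other cell types, 6 had a row. PECAM1, which myeloid cells also carry, was at 716 CPM, and the other tested ones had control means of at most 10.2 CPM.

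A synthetase first activates its amino acid with ATP and then transfers it to the tRNA, and ribosomes use the charged tRNA to read codons. Human cells keep separate sets of synthetases for the cytosol and for mitochondria, which translate their own small genome, while GARS and KARS each encode the enzyme of both compartments. Several cytosolic enzymes sit together in the multi-tRNA synthetase complex, held by the scaffold proteins AIMP1, AIMP2 and EEF1E1. When an amino acid runs short, uncharged tRNA activates the kinase GCN2 (EIF2AK4), which phosphorylates the initiation factor eIF2 and raises translation of ATF4. ATF4 is a transcription factor known to switch on genes of amino acid uptake and synthesis together with many cytosolic synthetases.

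No synthetase mRNA passed an adjusted p of 0.05 in either direction between knockdown and control cells (0 of 36, edgeR quasi-likelihood test with Benjamini-Hochberg adjustment over all genes), against 2.83% of all genes tested (1.22% higher and 1.61% lower). At an unadjusted p under 0.05 there were 2 members, EARS2 and EPRS, both lower in knockdown. Of all genes, 8.21% were lower and 6.89% higher at that level. DESeq2 and limma-voom each called 0 members, with 2 each at an unadjusted p under 0.05. The 36 log2 fold changes ran from -0.27 (VARS2) to 0.21 (PARS2) with a median of -0.0067, and over all genes tested the median was -0.0019. The median size of a change, either way, was 0.065 for the members and 0.094 for all genes. For the RNA classes read as signs of RNA quality, most genes lay below 0 but did not pass the adjusted threshold. Of 13 mRNAs encoded by mitochondrial DNA 12 lay below 0, and of 30 cytosolic ribosomal protein mRNAs 29 did. Of all genes tested, 49.4% lay above 0. An unadjusted p under 0.05 (edgeR) held for 5 of the 13 and 13 of the 30, all lower. Knockdown libraries lay wholly below the controls in 1 of the 13 and 6 of the 30 (10.4% of all genes). The 13 mRNAs encoded by mitochondrial DNA had a median of -0.16, with MT-ND3 called lower (log2 fold change -0.19, edgeR adjusted p = 0.0240), 0 called higher, and summed levels that overlapped, at 19145 to 25584 CPM in controls and 20121 to 20795 CPM in knockdown. Without control replicate 1 the number called lower was 12. The 30 cytosolic ribosomal protein mRNAs had a median of -0.11, with RPS2 called lower (log2 fold change -0.19, edgeR adjusted p = 0.0454), 0 called higher, and sums that overlapped, at 17798 to 20022 CPM and 17479 to 18000 CPM. Without control replicate 3 the number called lower was 13, and with upper-quartile factors or no filter it was 0. Leaving out control replicate 2 or any 1 knockdown library gave adjusted p values of 0.0824 to 0.137 for MT-ND3 and 0.124 to 0.244 for RPS2. The part of either class in the members' values was not tested.

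The 95% intervals of the fold changes show what size of change these libraries leave room for. All 20 cytosolic members had an interval that lay within 0.322 of 0 on the log2 scale, from a lowest bound of -0.21 to a highest of 0.22. Of the 16 mitochondrial members 9 had such an interval, and 53.5% of all genes did. The intervals of the other 7 (EARS2, FARS2, NARS2, PARS2, SARS2, VARS2 and WARS2) reached further, and each of these genes had a mean count of at most 362 per library. All members but VARS2 had an interval within 1.5-fold, against 77.2% of all genes. Interval width depends on the depth of a gene, so these shares also reflect abundance.

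**Figure D1:**
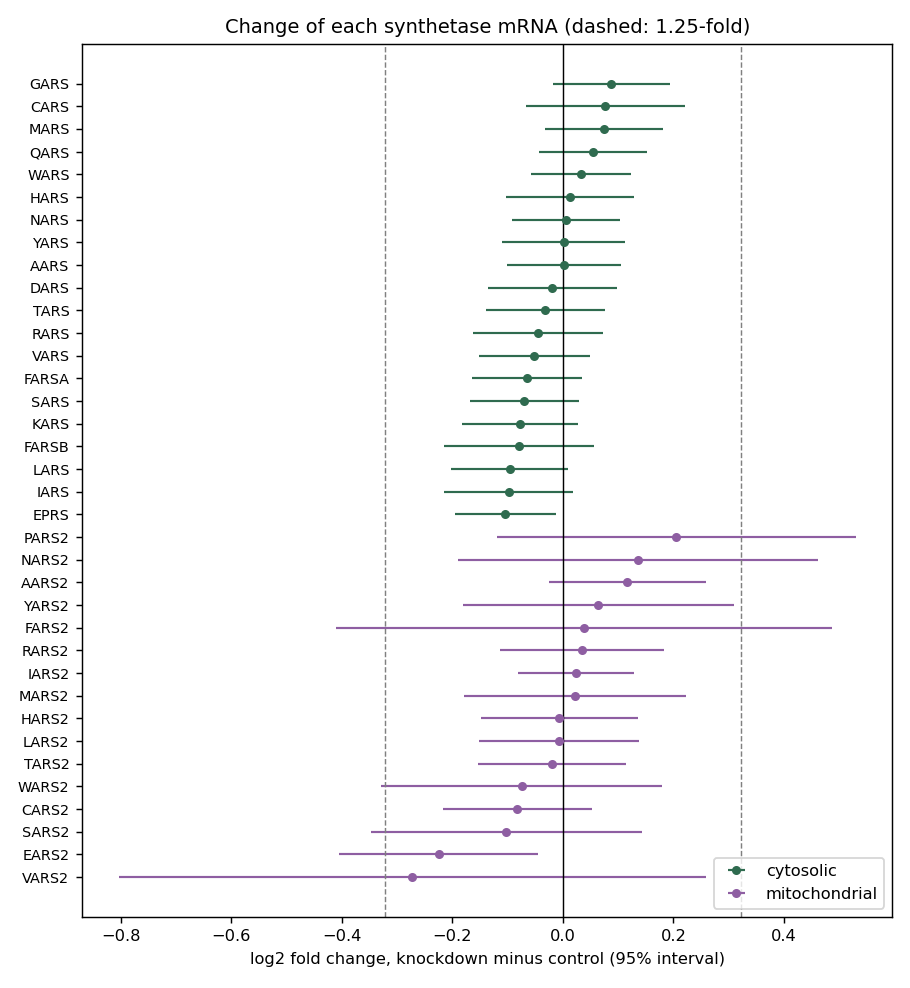
Log2 fold change of each synthetase mRNA (horizontal axis, knockdown minus control, point) with its 95% interval (bar), for 20 cytosolic and 16 mitochondrial genes ordered by size, and dashed lines at 0.322 either side of 0. All cytosolic intervals lie between the dashed lines, and the widest interval is that of VARS2.

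EPRS, which charges both glutamate and proline tRNAs with a single fused protein, had the highest counts of the 36. Its gene lies at GRCh38 chromosome 1, 219968601 to 220046658, on the minus strand. EPRS measured 454, 434 and 429 CPM in controls and 398, 409 and 418 CPM in knockdown. All 3 knockdown values lay below all 3 controls, the difference between the means was -6.96%, and the log2 fold change was -0.10 ± 0.04 SE (95% interval -0.20 to -0.01, edgeR adjusted p = 0.255). In 4 of the 36 members the knockdown libraries lay wholly below the controls (EPRS, SARS, FARSA and EARS2) and in none wholly above. Of all genes tested, 10.4% lay wholly below and 9.61% wholly above.

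The other enzymes of the multi-tRNA synthetase complex did not pass the test. Of the 8 complex members in the list, 6 had a log2 fold change below 0 and 2 above, with a median of -0.06, and only EPRS had an unadjusted p under 0.05. LARS, the leucine enzyme, which also serves as a leucine sensor for the growth kinase mTORC1, measured 173, 160 and 159 CPM in controls and 151, 150 and 160 CPM in knockdown. Its groups touched only through the third knockdown library, which equalled the lower controls, and its log2 fold change was -0.10 (interval -0.20 to 0.01, edgeR adjusted p = 0.390). IARS, the isoleucine enzyme, gave 110, 111 and 123 CPM in controls and 108, 103 and 110 CPM in knockdown. Here a single control library stood high, and the log2 fold change was -0.10 (interval -0.21 to 0.02, edgeR adjusted p = 0.430).

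KARS, the lysine enzyme of both compartments, lies on chromosome 16, 75627474 to 75648643. It measured 227, 208 and 202 CPM in controls and 204, 201 and 198 CPM in knockdown. The groups overlapped, with a log2 fold change of -0.08 (interval -0.18 to 0.03). MARS, the methionine enzyme, which supplies initiator tRNA as well as elongator tRNA, stood on the other side of 0. It measured 113, 123 and 113 CPM in controls and 124, 122 and 123 CPM in knockdown, a log2 fold change of 0.07 (interval -0.03 to 0.18, edgeR adjusted p = 0.535). Its second control library matched the knockdown level. The complex enzymes left, QARS, RARS and DARS, had log2 fold changes of 0.05, -0.05 and -0.02.

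The scaffold genes of the complex gave no call either. AIMP1, whose product is also cut into the secreted cytokine EMAP II, measured 44.4 CPM in controls and 43.8 CPM in knockdown as group means. AIMP2 measured 30.2 and 30.3 CPM. EEF1E1 was low, at 5.95, 6.28 and 5.29 CPM in controls and 6.64, 7.01 and 6.65 CPM in knockdown. Its knockdown libraries all lay above the controls, with a log2 fold change of 0.21 (interval -0.08 to 0.50, edgeR adjusted p = 0.519).

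Cytosolic enzymes outside the complex, GARS, SARS, WARS and AARS among them, did not pass the test either. GARS, the glycine enzyme of cytosol and mitochondria (chromosome 7, 30594681 to 30634033), measured 115, 110 and 120 CPM in controls and 118, 126 and 123 CPM in knockdown. The groups overlapped in 1 library of each, and the log2 fold change was 0.09 (interval -0.02 to 0.19, edgeR adjusted p = 0.444). SARS, the serine enzyme (chromosome 1, 109213918 to 109238169), measured 121, 117 and 118 CPM in controls and 112, 112 and 115 CPM in knockdown. Its groups did not overlap, although the log2 fold change was only -0.07 (interval -0.17 to 0.03, edgeR adjusted p = 0.530).

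WARS, the tryptophan enzyme, is known as a strongly interferon-induced gene in macrophages and lies on chromosome 14, 100333788 to 100376805. It measured 309, 328 and 318 CPM in controls and 326, 325 and 326 CPM in knockdown, which places every knockdown library inside the control range. The log2 fold change was 0.03 (interval -0.06 to 0.12). AARS, the alanine enzyme (chromosome 16, 70252295 to 70289543), was among the members closest to no change. It measured 163, 173 and 178 CPM in controls and 169, 168 and 177 CPM in knockdown, with a log2 fold change of 0.0014 (interval -0.10 to 0.10).

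Phenylalanine is the only amino acid whose cytosolic enzyme is built from 2 different subunits, encoded by FARSA and FARSB. FARSA measured 131, 132 and 132 CPM in controls and 125, 130 and 122 CPM in knockdown, all below the controls, with a log2 fold change of -0.07 (edgeR adjusted p = 0.566). FARSB had one of -0.08 (edgeR adjusted p = 0.622) with overlapping groups. Although the proteins pair equally, their mRNA levels per kilobase of annotated transcript differed. FARSA was 5.44 to 5.83 times FARSB in the controls and 5.41 to 6.13 times in knockdown. Before division by length, the control means were 132 CPM for FARSA and 43.5 CPM for FARSB. The cytosolic enzymes not named so far (CARS, HARS, NARS, TARS, VARS and YARS) had log2 fold changes between -0.05 (VARS) and 0.08 (CARS).

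**Figure D2:**
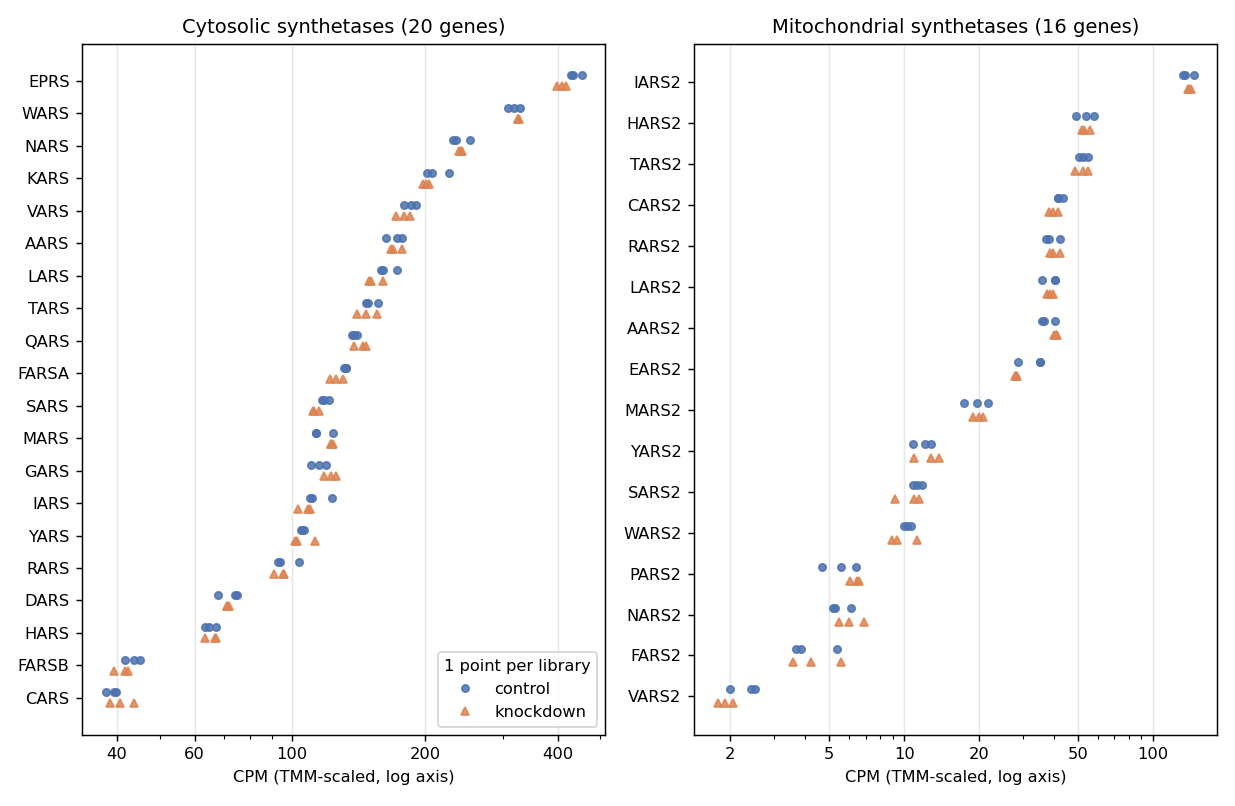
Level of each synthetase mRNA in every library (horizontal log axis, TMM-scaled CPM), with circles for 3 control and triangles for 3 knockdown libraries, ordered by the control mean. The groups overlap in 32 of 36 genes, and the spread between genes is far wider than that between groups.

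EARS2, the mitochondrial glutamate enzyme, had the smallest p of the 36. Its gene lies on chromosome 16, 23522014 to 23557731, minus strand, and it overlaps UBFD1 on the other strand. EARS2 had 374, 342 and 365 counts among controls and 351, 402 and 340 under knockdown, or 35.3, 28.6 and 35.1 CPM against 28.4, 28.2 and 27.9 CPM. The second control library lay just above the knockdown range while the other controls stood clearly apart. The means differed by -14.7%, and the log2 fold change was -0.22 ± 0.08 SE (interval -0.40 to -0.05, edgeR adjusted p = 0.196). With each library left out in turn, the log2 fold change ran from -0.32 (without control replicate 2, adjusted p = 0.0710) to -0.17 (without control replicate 1, adjusted p = 0.354).

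On the other side, AARS2 and PARS2 had the smallest p among mitochondrial members above 0. AARS2, the mitochondrial alanine enzyme (chromosome 6, 44299654 to 44313326), measured 40.3, 36.6 and 35.9 CPM in controls and 40.1, 40.9 and 41.3 CPM in knockdown. A single control library reached the knockdown level, and the log2 fold change was 0.12 (interval -0.02 to 0.26, edgeR adjusted p = 0.446). PARS2, the mitochondrial proline enzyme (chromosome 1, 54756898 to 54764514), rested on 68, 56 and 58 counts in controls and 80, 94 and 74 in knockdown. Its level was 6.42, 4.69 and 5.58 CPM against 6.48, 6.59 and 6.08 CPM, with a log2 fold change of 0.21 and an interval from -0.12 to 0.53.

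WARS2, the mitochondrial tryptophan enzyme, measured 10.0, 10.3 and 10.7 CPM in controls and 8.91, 9.33 and 11.2 CPM in knockdown, and the knockdown libraries spanned the control range. Its log2 fold change was -0.07 (interval -0.33 to 0.18). VARS2, with the lowest counts of the set (21 to 29 per library), had the most negative log2 fold change, -0.27, and an interval from -0.80 to 0.26, so a change of some size was not detectable at this depth. Of the 16 mitochondrial members 8 had a log2 fold change above 0 and 8 below, with a median of 0.0078. IARS2, the most abundant of them, was at 0.02 (interval -0.08 to 0.13).

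Summed over the 36 genes, the level was 3575, 3524 and 3533 CPM in the controls and 3479, 3477 and 3500 CPM in knockdown. The sums did not overlap on this scale, but as a share of all deposited counts the groups did overlap, at 0.347% to 0.352% in controls and 0.350% to 0.354% in knockdown. The 20 cytosolic members together made 3024 to 3065 CPM in controls and 2969 to 2991 CPM in knockdown, and the 8 complex enzymes 1335 to 1386 CPM and 1293 to 1313 CPM, both without overlap on this scale. The TMM scaling factors were 0.986 to 0.996 in controls, which raises their CPM. They were 1.007 to 1.014 in knockdown, which lowers it. The cytosolic and complex sums were not taken without these factors. The 16 mitochondrial members together made 501 to 510 CPM in controls and 497 to 510 CPM in knockdown, which overlapped. These sums were not tested. Grouping by catalytic fold gave medians of -0.0026 for the 18 class I enzymes and -0.0065 for the 17 class II enzymes (EPRS holds a domain of each and was in neither group).

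To set genes against each other, CPM was divided by the length of the principal transcript. That length comes from the annotation, and the isoforms present in these cells were not measured, so levels per kilobase depend on it. In the controls KARS (106 ± 6.55 CPM per kb, SD, n = 3) and WARS (103 ± 3.06) led and did not differ beyond their spread. EPRS followed at 87.5 ± 2.59, then NARS at 77.4 ± 3.67, FARSA at 72.6 ± 0.470 and SARS at 64.0 ± 1.22 CPM per kb. FARSB was the lowest cytosolic member, at 12.9 CPM per kb. The median was 43.3 CPM per kb over the cytosolic members and 7.34 CPM per kb over the mitochondrial ones. In knockdown the same medians were 43.0 and 6.85 CPM per kb, and no gene moved by more than 2 places in the order of the 36.

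The gap between a cytosolic enzyme and its mitochondrial partner differed widely by amino acid. Among 17 such pairs (EPRS was paired with EARS2 and with PARS2, and FARS2 with FARSA and with FARSB), the cytosolic mRNA was higher per kilobase in 15. The exceptions were isoleucine and cysteine. Before division by length, control means were 115 CPM for IARS against 138 CPM for IARS2. For CARS and CARS2 they were close, at 39.0 and 42.3 CPM. The level of IARS was 0.633, 0.629 and 0.644 times that of IARS2 in the controls and 0.583, 0.568 and 0.602 times in knockdown. In 4 of the 17 pairs the ratios of the groups did not overlap: they were lower in knockdown for IARS/IARS2, RARS/RARS2 and EPRS/PARS2 and higher for CARS/CARS2. For single genes, 10.4% of all tested lay wholly below the controls and 9.61% wholly above. Such a share was not computed for ratios of other gene pairs. No gene of the 17 pairs passed the test on its own, and the ratios were not tested. CARS stood at 0.646 ± 0.0335 times CARS2 in controls and 0.719 ± 0.0465 times in knockdown (SD, n = 3 each). At the other end, VARS was 76.5 ± 7.54 times VARS2 in controls and 88.8 ± 8.68 times in knockdown.

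**Figure D3:**
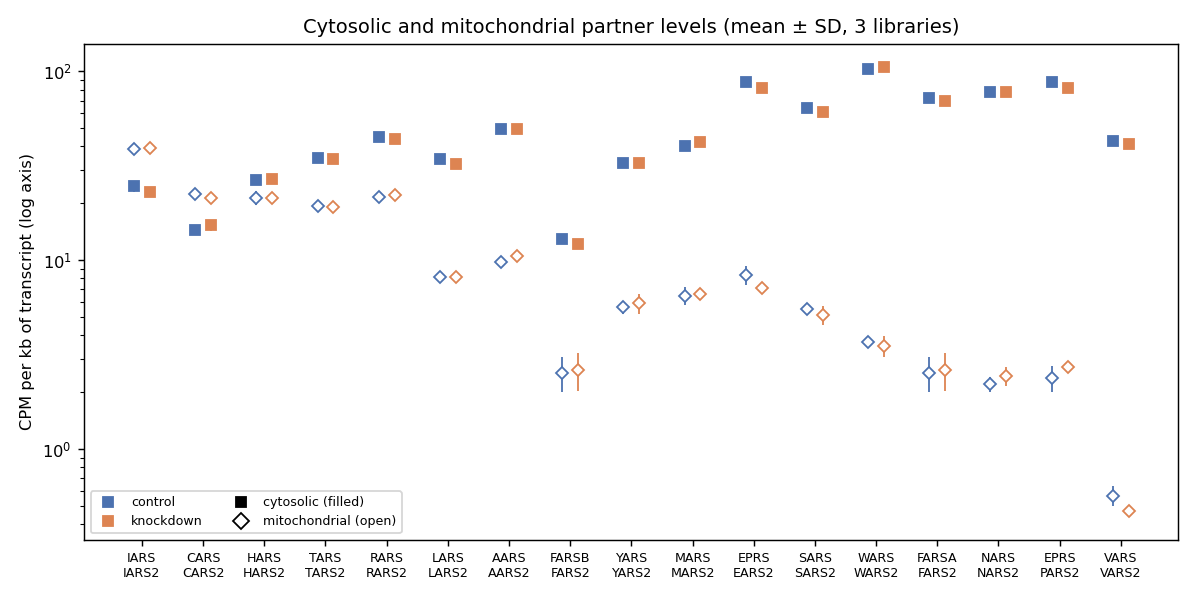
Level per kilobase of transcript (vertical log axis, mean ± SD of 3 libraries) of each cytosolic synthetase (filled squares) and its mitochondrial partner (open diamonds), in control and knockdown cells. IARS2 and CARS2 lie above their cytosolic partners, and VARS and VARS2 lie furthest apart.

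HARS and HARS2 are neighbours that start back to back. In RefSeq their start sites lie 85 bases apart on chromosome 5, at 140691370 (HARS, minus strand) and 140691455 (HARS2, plus strand). HARS measured 64.8, 67.0 and 63.5 CPM in controls and 66.7, 63.5 and 67.0 CPM in knockdown, and its log2 fold change was 0.01. HARS2 measured 58.3, 54.1 and 49.1 CPM in controls and 55.7, 52.1 and 53.0 CPM in knockdown, and its log2 fold change was -0.0065. In both genes every knockdown library lay within or at the edge of the control range.

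ATF4 binds, with a C/EBP partner, a composite site whose core is TGATGCAA or, on the other strand, TTGCATCA. The windows of 300 bases around RefSeq start sites (250 before and 50 after, GRCh38.p14) were searched for this core on both strands, since these sequences mark which synthetase genes carry a site of the ATF4 type close to their start. The core occurred in 6 of 16 cytosolic members with a window, in 0 of 14 mitochondrial members, and in 1.08% of 27305 genes. A looser core, TGATGNAA, which includes the first, occurred in 7 and 1 of these members and in 4.46% of genes. DARS, LARS, VARS, YARS, AARS2 and VARS2 had no window. The 6 matches are shown on the strand of their gene with the core in capitals.
AARS: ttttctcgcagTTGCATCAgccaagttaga
CARS: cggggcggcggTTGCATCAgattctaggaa
IARS: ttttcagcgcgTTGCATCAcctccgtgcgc
MARS: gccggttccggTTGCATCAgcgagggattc
NARS: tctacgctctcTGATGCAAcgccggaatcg
TARS: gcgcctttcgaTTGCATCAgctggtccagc

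In 5 of these genes the core is read as TTGCATCA along the gene and in NARS as TGATGCAA. Counted from the start site, the AARS core lies at -187 to -180 (chr16:70289675-70289704 for the 30 bases shown) and the IARS core at -13 to -6 (chr9:92293692-92293721). In MARS (chr12:57488053-57488082) and CARS (chr11:3057407-3057436) the core spans the start site. In TARS (chr5:33440956-33440985) and NARS (chr18:57621804-57621833) it lies just inside the transcript. The log2 fold changes of the 6 genes ran from -0.10 (IARS) to 0.08 (CARS) with a median of 0.0036. The 10 cytosolic members with a window but no such core ran from -0.10 (EPRS) to 0.09 (GARS) with a median of -0.06. A match is a description of the letters and does not show binding in these cells.

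The genes that sense uncharged tRNA did not pass the test. ATF4 mRNA measured 264, 244 and 227 CPM in controls and 229, 234 and 227 CPM in knockdown, with a log2 fold change of -0.09 (interval -0.20 to 0.02, edgeR adjusted p = 0.453). ATF4 is controlled largely by translation, which these libraries do not measure. EIF2AK4 measured 71.6 CPM in both groups as means (interval -0.12 to 0.12). Of the 14 genes of the GCN2 and eIF2 list, 0 passed in either direction in edgeR (1 at an unadjusted p under 0.05) and the median was -0.05.

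Other known targets of ATF4 had a higher median than the synthetases, and the difference between the lists was not tested. The ATF4 target median was 0.22, but 0.16 to 0.19 with 1 library left out. The synthetase median was then -0.022 to 0.0084. Of 24 ATF4 targets, 20 had a log2 fold change above 0 (49.4% of all genes tested did). Only 2 rose and 1 fell past the threshold, against 1.22% and 1.61% of all genes. Transporters of amino acids, a class that ATF4 also acts on, were kept in a separate list (8 above 0 and 5 below). Of these 5, SLC7A11 was at -0.17 (edgeR adjusted p = 0.0690), with all knockdown libraries below the controls. An unadjusted p under 0.05 held for 8 higher and 1 lower of the 24, against 6.89% and 8.21% of all genes. In 7 of them the knockdown libraries lay wholly above the controls, and in 1, MTHFD2, wholly below (9.61% and 10.4% of all genes). The summed level of the list was 1448 to 1466 CPM in controls and 1363 to 1435 CPM in knockdown. Without MTHFD2, which was left out after its values were seen, the sum of the other 23 genes was 1180 to 1196 CPM in controls and 1215 to 1287 CPM in knockdown. CBS, an enzyme of cysteine synthesis, rose from 38.8, 42.0 and 42.1 CPM to 48.0, 50.3 and 47.2 CPM (log2 fold change 0.24, edgeR adjusted p = 0.0490). SESN2, a leucine-binding inhibitor of mTORC1, rose from 32.8, 39.8 and 37.5 CPM to 44.2, 46.9 and 43.4 CPM (0.29, edgeR adjusted p = 0.0498).

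Both calls, CBS and SESN2, sat at the threshold. Leaving out any 1 library gave adjusted p values of 0.0505 to 0.235 for CBS and 0.0583 to 0.248 for SESN2. Neither gene passed by limma-voom, by DESeq2 or without the filter on low counts. ASNS, the asparagine synthetase, which makes the amino acid rather than charging a tRNA, was low at 4.30 ± 0.255 CPM in controls and 5.14 ± 0.235 CPM in knockdown (SD, n = 3 each). Its groups did not overlap, and its log2 fold change was 0.26 (interval -0.08 to 0.61, edgeR adjusted p = 0.478). Of 18 ATF4 targets with a promoter window, 2 held the same core, CHAC1 (chr15:40953251-40953280) and CEBPG (chr19:33374060-33374089), shown on the strand of the gene with the core in capitals. CHAC1 had a log2 fold change of 0.57 at 3.08 CPM in controls (interval 0.09 to 1.05, edgeR adjusted p = 0.229). CEBPG, a C/EBP family member, had one of 0.03 at 47.0 CPM (interval -0.11 to 0.17, edgeR adjusted p = 0.881).
CHAC1: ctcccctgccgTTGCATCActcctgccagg
CEBPG: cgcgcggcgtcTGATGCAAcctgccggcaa

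MTHFD2, a mitochondrial enzyme of folate metabolism and also a known target of ATF4, went the other way. It fell from 270, 268 and 274 CPM to 147, 148 and 149 CPM, and its log2 fold change of -0.87 had an SE of 0.04 (edgeR adjusted p = 8.45e-09). The interval of no cytosolic synthetase came near this value: the lowest bound among the 20 was -0.21. Among the mitochondrial members, the wide interval of VARS2 (-0.80 to 0.26) overlapped that of MTHFD2 (-0.96 to -0.78).

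**Figure D4:**
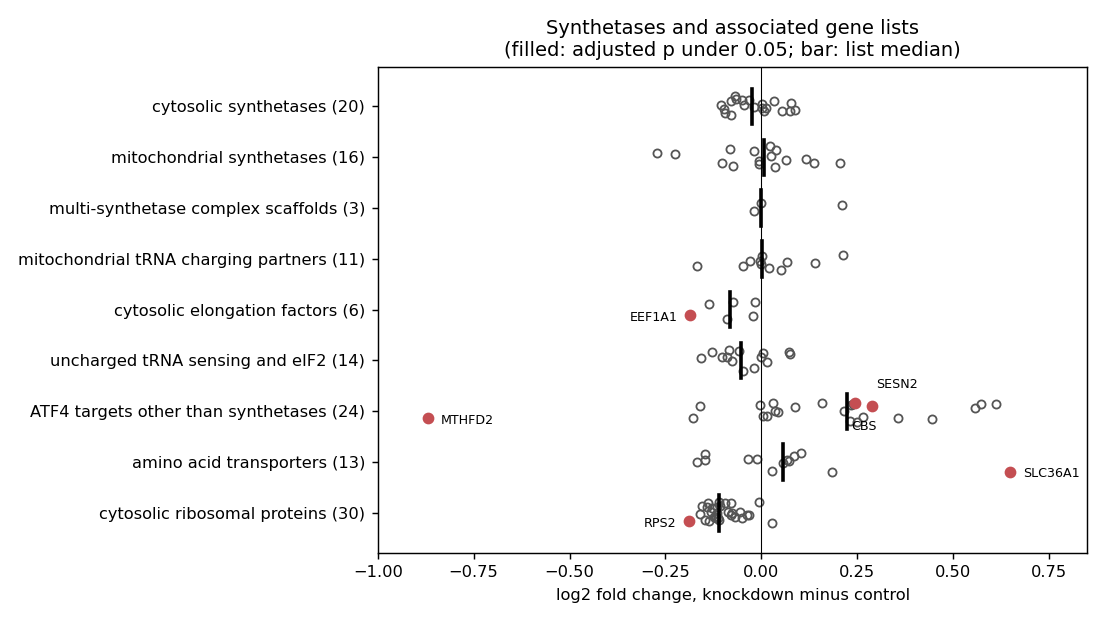
Log2 fold change (horizontal axis, knockdown minus control) of each tested gene in the synthetase groups and in lists of associated genes, with filled points past an adjusted p of 0.05 and a bar at the list median. Both synthetase groups cluster around 0 with no filled point, the ATF4 targets have a median of 0.22, and MTHFD2 and SLC36A1 lie furthest out.

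Partners of the synthetases in mitochondria gave no call. Of 11 genes for the amidotransferase that makes glutaminyl-tRNA, the formyltransferase of initiator tRNA, tRNA modification and elongation, 6 lay above 0 and 5 below. The median was 0.0026, and 0 passed the edgeR test (1 at an unadjusted p under 0.05).

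Cytosolic elongation factors, which carry charged tRNA to the ribosome and move it along, all lay below 0 (49.4% of all genes tested lay above). Of 6 genes 1 fell past the threshold and 0 rose, against 1.61% and 1.22% of all genes. The median was -0.08. EEF1A1, the factor that delivers charged tRNA, fell from 9020, 8848 and 8406 CPM to 7618, 7662 and 7810 CPM (log2 fold change -0.19, edgeR adjusted p = 0.0248). Without control replicate 2 or any 1 knockdown replicate its adjusted p was between 0.106 and 0.148. EEF1A1 has many processed copies in the genome that share its sequence, and its part in the synthetase values was not tested.

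Transport of amino acids into the cytosol showed 1 strong call. Of 13 tested transporters 1 rose and 0 fell past the threshold (1.22% and 1.61% of all genes), with a median of 0.06. Knockdown libraries lay wholly below the controls in 3 (SLC7A11, SLC43A1 and SLC43A2) and wholly above in 1 (10.4% and 9.61% of all genes). SLC43A2 was at -0.15 (edgeR adjusted p = 0.119). An unadjusted p under 0.05 (edgeR) held for 4 of the 13, against 6.89% of all genes higher and 8.21% lower. SLC36A1, a proton-coupled carrier of small amino acids on lysosomes, rose from 101, 113 and 111 CPM to 172, 169 and 170 CPM (log2 fold change 0.65, edgeR adjusted p = 4.15e-06). The enzymes that use its substrates, AARS, GARS and EPRS, had log2 fold changes of 0.0014, 0.09 and -0.10.

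Because WARS responds to interferon gamma, 14 genes induced by that cytokine were set beside it. Their median was 0.01, and 0 rose and 2 fell past the threshold, against 1.22% and 1.61% of all genes tested. IDO1, which degrades tryptophan, fell from 199, 196 and 184 CPM to 165, 167 and 168 CPM (log2 fold change -0.21, edgeR adjusted p = 0.0208). For IDO1 the adjusted p was 0.130 on leaving out control replicate 2, and to between 0.0986 and 0.11 on leaving out any 1 knockdown library. CIITA, the coactivator of MHC class II genes, fell from 51.7 to 38.8 CPM as group means (edgeR adjusted p = 0.0112). For CIITA, leaving out control replicate 2 gave 0.0977 and leaving out knockdown replicate 2 gave 0.106. WARS itself, with an interval of -0.06 to 0.12, did not pass the threshold.

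Some member counts are less certain than their intervals show. In the annotation 12 of the 36 members overlap another protein-coding gene, among them MARS with DDIT3 and ARHGAP9, KARS with TERF2IP, and VARS2 with GTF2H4 on its own strand. Reads may also be shared with pseudogenes: 11 members have at least 1 pseudogene named after them (KARS has 3). No source used here says whether strand was used in counting.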

How the data were processed

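Polyadenylated RNA was sequenced from 3 control and 3 knockdown THP-1 libraries, grouped by their titles. The submitters' processing notes name Salmon 0.11.2, DESeq2 and hg38. The labels name expected counts from Salmon as the source of the values, and the uses of DESeq2 and hg38 are not given. The deposited values are the authors' estimated counts, not normalized, one row to a gene symbol, all of them whole, with a lowest row sum of 10. The 36 members, gene lists and the naming rule were chosen with earlier results of these data known. The test was edgeR's quasi-likelihood F test (version 4.0.16, R 4.3.3), two-sided, with TMM factors, filterByExpr and no covariate, and Benjamini-Hochberg adjustment ran over 13405 genes. The fit was tested on simulated data first. CPM values use TMM factors. Standard errors are approximate, taken as the size of the log2 fold change over the root of its F, and the 95% interval uses the test's degrees of freedom. Named members were to be those past the threshold, the next 4 by p in each direction and 8 fixed for their roles (EPRS, GARS, KARS, WARS, MARS, AARS, SARS, WARS2). From the lists, called genes and 8 fixed genes were named. Members and list genes outside the rule were named after their values were seen, for completeness, overlap with controls or promoter matches. Positions and principal (APPRIS) transcript lengths came from GENCODE 29 (GRCh38), which matched all 36 members, and promoters from RefSeq GRCh38.p14, which had windows for 30. Replicates differed beyond sampling noise in every pair (chi-square over degrees of freedom at least 1.91). This ratio was 2.79 to 6.79 between controls, highest for replicates 1 and 3, and 1.91 to 2.28 between knockdown libraries. The alternatives tried were DESeq2 1.42.0, limma-voom (limma 3.58.1), RLE and upper-quartile factors, other filters, a replicate block, each library left out and an adjusted p under 0.01.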

Additional observations from a re-analysis of the deposited data

How the results depend on the processing

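In none of 13 alternative fits did any of the 36 synthetases pass an adjusted p of 0.05, so the counts of members called higher and lower were 0 throughout, also at 0.01. The smallest adjusted p was 0.0710 (EARS2 without control replicate 2) and the largest log2 fold change, either way, 0.367. In 21 members the sign was kept in all 13 fits, and 15 changed sign in at least 1. The number of all genes called was 379, 150 at an adjusted p under 0.01, and 139 to 542 with 1 library left out (165 without control replicate 2 and 194, 139 and 156 without knockdown replicates 1, 2 and 3). ATF4 targets called higher numbered 2, but 0 with no filter, 0 in DESeq2, 0 in limma-voom, 0 at an adjusted p under 0.01, and 0 to 1 with 1 library left out. With 1 library left out the numbers called lower were 0 to 2 elongation factors, 0 to 2 interferon gamma genes, 0 to 2 amino acid transporters, 0 to 12 mRNAs encoded by mitochondrial DNA and 0 to 13 ribosomal protein mRNAs, and 1 to 3 macrophage markers were called higher. At an adjusted p under 0.01 there were 0 elongation factors, 0 interferon gamma genes, 0 mitochondrially encoded and 0 ribosomal protein mRNAs called lower, and 1 macrophage marker called higher. Amino acid transporters called lower numbered 1 in DESeq2 and 1 with the replicate block. Ribosomal protein mRNAs called lower numbered 0 with upper-quartile factors, 0 with no filter, 2 in DESeq2, 2 in limma-voom and 2 with the replicate block. With 1 library left out, log2 fold changes crossed 0 for AARS (-0.033 to 0.031), EIF2AK4 (-0.018 to 0.040), AIMP1 (-0.055 to 0.050) and AIMP2 (-0.071 to 0.095). AIMP2, at -0.00016, was also above 0 with RLE factors (0.0030), upper-quartile factors (0.0041), no filter (0.00037), the filter of 1 CPM (0.00024), DESeq2 (0.0047), limma-voom (0.0030) and the replicate block (0.0018). The lists of complex scaffolds, mitochondrial partners, GCN2 and eIF2 genes, proofreading genes and other synthetases had 0 called in either direction in every fit, DESeq2 and limma-voom included. The cause of the shifts above was not tested. The main fit did not pair libraries by replicate number, since the labels state no covariate. Correlations of deviations were 0.117, 0.185 and 0.0746 for the same number and -0.128 to 0.0136 for different numbers. With the replicate block 488 genes were called and 0 synthetases, and every library correlated best with its own number, which is a hint from the data and not the design. DESeq2 gave no adjusted p for 4 members. Depth limits VARS2, FARS2, NARS2 and PARS2 most, at under 100 counts per library.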

Other observations

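Further genes of tRNA charging, outside the members, gave no call. Of 5 other synthetases and synthetase-like genes, 0 passed the test in edgeR, DESeq2 or limma-voom (in edgeR 0 at an unadjusted p under 0.05) and the median log2 fold change was -0.03. TARSL2, a second cytosolic threonine enzyme, was low, at 5.24 CPM in controls and 4.65 CPM in knockdown, and the 95% interval of its log2 fold change ran from -0.52 to 0.18. SEPSECS, which makes selenocysteine on its tRNA, was at 24.8 and 27.3 CPM (interval -0.04 to 0.32). Of 10 genes of proofreading, tRNA export and tRNA maturation, 5 lay above 0 and 5 below, and 0 passed in edgeR, DESeq2 or limma-voom (in edgeR 1 at an unadjusted p under 0.05). That gene was ANKRD16, a cofactor that helps AARS to avoid charging its tRNA with serine. It was at 3.38 CPM in controls and 2.36 CPM in knockdown, with an interval from -1.03 to -0.02 and an edgeR adjusted p of 0.301. TARSL2, SEPSECS and ANKRD16 were named after their values were seen.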
